A study of Mus musculus with 45 samples.

Results

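The myogenic regulatory factors are the 4 basic helix-loop-helix transcription factors of the skeletal muscle lineage: Myod1 (MyoD), Myf5, Myog (myogenin) and Myf6 (MRF4). They were taken by gene symbol, as 4 of the 35675 genes measured, and are described in all 15 groups of the series. In every library other than those of untreated fibroblasts, Myod1 and Myog were the most abundant members per transcript length, with 1 exception, replicate 2 of the bulk induced myogenic progenitor cells, in which Myf6 was above Myod1. Myf5 and Myf6 separated the 2 treatments: with MyoD alone Myf5 had 1 read in 15 libraries, while with MyoD and the small molecules F/R/C it was read from day 4 on, and Myf6 was higher with F/R/C on every day.

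The 4 proteins bind the E-box, a short DNA motif with the core CANNTG, as dimers with the widely expressed E proteins such as Tcf3 and Tcf12. Myf5 and Myod1 commit cells to the muscle lineage and are made by activated muscle stem cells and dividing myoblasts. Myog is switched on when myoblasts leave the cell cycle and is needed for their differentiation into fused fibres, while Myf6 has a part in both commitment and the mature fibre, where it is the most abundant of the family. Forced expression of MyoD turns fibroblasts into muscle cells, which is how the family was found.

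Mouse embryonic fibroblasts (MEFs) were profiled untreated, after 2, 4, 6, 8 and 10 days of doxycycline, which switches on a MyoD transgene, and after the same days of doxycycline with the small molecules called F/R/C, which the labels do not spell out. The labels call the cells with doxycycline alone myotubes, and those with doxycycline and F/R/C muscle fibres and progenitor cells. Bulk induced myogenic progenitor cells (iMPCs) are described as doxycycline-independent clones kept in medium with F/R/C after 13 days of doxycycline and F/R/C. The other groups are iMPCs sorted by FACS for the Pax7 reporter, bulk primary myoblasts from skeletal muscle, and myoblasts sorted in the same way. Every group has 3 libraries and the genotype Tg:Pax7-nGFP/C57BL6;DBA2, a green nuclear reporter of Pax7, the transcription factor of muscle stem cells. The promoter of the MyoD transgene, the number of iMPC clones and the ages of the animals are not given in the sources used here. The labels do not say whether the 3 libraries of a group came from separate animals. In the data, each of the 15 groups held both libraries with Xist, the transcript of the inactive X chromosome in females, and libraries with Y-linked transcripts (Ddx3y, Eif2s3y, Kdm5d and Uty), so the libraries of a group were not all from 1 animal. Those of the same sex may still share a source, and p-values measure the spread between these libraries. In 13 groups replicate 3 was the library with Y-linked transcripts. The exceptions were replicate 2 of bulk myoblasts and replicates 1 and 2 of Pax7-positive myoblasts, so that the sorted groups differ in their balance of sexes. With the sex of the library as a covariate, a fit added after seeing the data, no member's call changed in any comparison.

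The members differ in sequence enough to be counted apart. Each has 1 annotated transcript with 3 exons in GENCODE M21, and no stretch of 31 bases of any of them occurs in another transcript. All their estimated counts were whole numbers. The longest identical run between 2 members is 26 bases, between Myod1 and Myf5. In the aligned coding sequences Myod1 and Myf5 share 64.0% of 755 bases, Myog and Myf6 56.6% of 663, and the other 4 pairs from 49.4% to 53.9%. The 90 coding bases that are most alike lie in exon 1 of each gene, and 59 of them, in capitals, are identical in all 4. They are shown on the coding strand, 5' to 3', in GRCm38, as the stretch with the most bases identical in all 4. The run of 26 bases shared by Myod1 and Myf5 lies outside them. Myod1 (chr7:46377052-46377141, plus strand), Myf5 (chr10:107485541-107485630, minus strand), Myog (chr1:134290351-134290440, plus strand) and Myf6 (chr10:107494284-107494373, minus strand) read there as follows.
Myod1: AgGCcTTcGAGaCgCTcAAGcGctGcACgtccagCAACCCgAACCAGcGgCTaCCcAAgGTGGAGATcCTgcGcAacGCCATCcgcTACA
Myf5: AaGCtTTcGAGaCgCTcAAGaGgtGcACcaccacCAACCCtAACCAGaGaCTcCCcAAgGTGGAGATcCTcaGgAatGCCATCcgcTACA
Myog: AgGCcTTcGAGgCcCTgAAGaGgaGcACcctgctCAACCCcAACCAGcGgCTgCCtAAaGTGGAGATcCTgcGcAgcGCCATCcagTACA
Myf6: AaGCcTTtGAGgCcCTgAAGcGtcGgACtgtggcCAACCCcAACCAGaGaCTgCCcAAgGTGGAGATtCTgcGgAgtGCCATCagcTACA
Within this window Myod1 and Myf5 are identical at 75 of the 90 bases and Myf5 and Myog at 66, and the other pairs lie in between.

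Myod1 spans chr7:46376474-46379099 (GRCm38) on the plus strand and has a single transcript, ENSMUST00000072514, of 1861 bases with 954 coding bases. All Myod1 values below are the values of that transcript. A read from the coding part of the transgene is counted there as well, so transgene and endogenous Myod1 are not told apart in any library. Myog lies at chr1:134289989-134292548 on the plus strand. Myf5 (chr10:107482908-107486134) and Myf6 (chr10:107492853-107494737) are neighbours on the minus strand, 6718 bases apart with Myf6 upstream of Myf5.

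Libraries held 15.6 to 36.3 M estimated reads (median 22.1 M), and bulk iMPCs were the deepest group with 33.2 to 36.3 M. Levels are given as TPM, which is scaled to transcript length and depth, to compare members, and as CPM, which is scaled to depth with TMM factors, to compare groups. The 6 sorted libraries were quantified with other effective lengths (for Myod1 a median of 2018 bases, against 1607 in the other 39), so TPM is not set across sorted and unsorted cells, and sorting cannot be told apart from this setting. The labels were checked against summed marker levels. The sum of 12 fibroblast genes was 20187 to 25301 CPM in MEFs and 1448 to 7369 CPM in the F/R/C groups. For the cells labelled myotubes (MyoD alone) this sum was 12634 to 33394 CPM, a range that includes the MEF values. It lay below the MEFs on day 2, at 13080 to 18011 CPM, and overlapped with them on every later day. The sum of 11 genes of differentiated muscle was 55.1 to 167 CPM in MEFs and 9923 CPM or more in all 30 doxycycline libraries. Replicate 3 of the bulk myoblasts stood apart, with 1105 CPM of the differentiated muscle genes against 18652 and 32506 CPM in the other 2. In bulk samples, fewer cells of a type and less RNA per cell cannot be told apart.

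**Figure D1:**
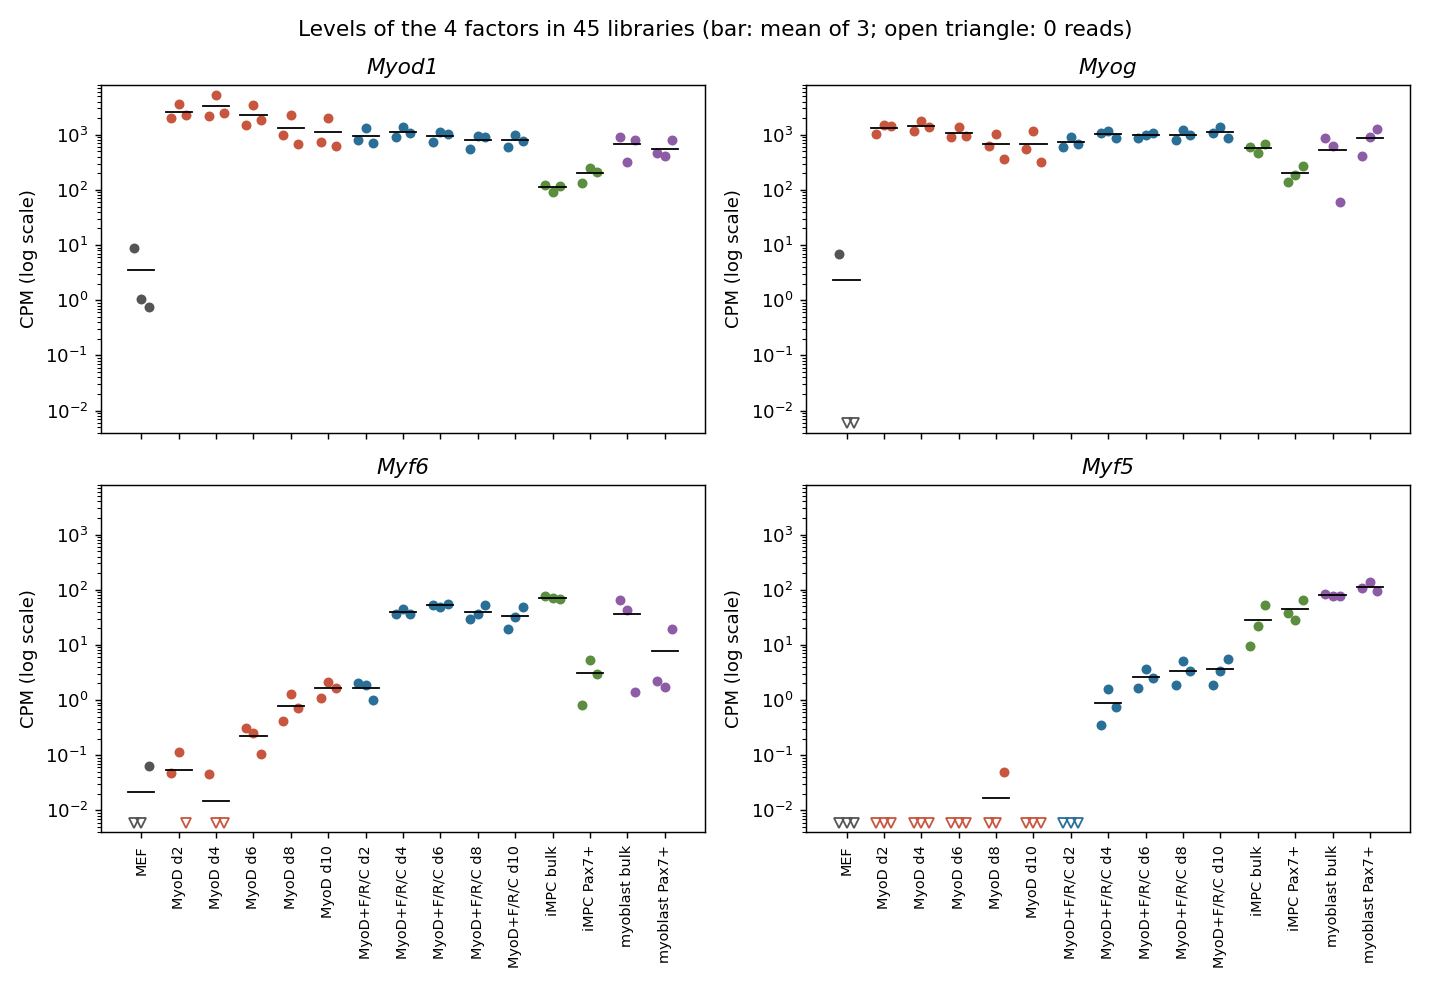
CPM (log scale) of the 4 factors in each of 45 libraries, by group; points are libraries, bars the mean of 3, open triangles libraries with 0 reads. Myod1 and Myog are high in every doxycycline group, Myf6 separates the 2 treatments by day 4, and Myf5 is highest in myoblasts.

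Myod1, the factor that was induced, was low in untreated MEFs and rose in every doxycycline group. In MEFs it was at 9.80, 1.11 and 0.820 TPM, from 201, 23 and 12 reads, so replicate 1 stood above the others. After 2 days of MyoD alone it was at 1964, 3311 and 2196 TPM, and with F/R/C at 841, 1283 and 727 TPM. The doxycycline groups did not overlap with the MEFs on any day. In edgeR's quasi-likelihood test, in which a gene was called at an adjusted p under 0.05 and at least a 2-fold change, Myod1 was called higher than in MEFs in all 10 doxycycline groups. From day 2 to day 10 these comparisons called 22.4%, 28.3%, 27.7%, 20.8% and 18.9% of the 17325 genes tested with MyoD alone, and 20.4%, 31.3%, 32.2%, 31.7% and 34.8% with F/R/C. On day 2 of MyoD alone the log2 fold change was 9.50 (SE 0.82, edgeR adjusted p = 1.8e-10). On day 10 with F/R/C it was 7.77 (SE 0.76, edgeR adjusted p = 1.7e-09). Without MEF replicate 1 these 2 values were 11.44 and 9.82.

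With MyoD alone the level of Myod1 was highest on day 4 and lower from then on, with a wide spread. It was at 2118, 4620 and 2310 TPM on day 4, at 1434, 3066 and 1708 TPM on day 6, at 979, 2152 and 648 TPM on day 8, and at 764, 1925 and 670 TPM on day 10. Replicate 2 was the highest library on all 5 days. From day 4 to day 10 the log2 fold change was -1.54 (SE 0.58, edgeR adjusted p = 0.18) and was not called, in a comparison that called 0.877% of genes. Same-numbered libraries deviated together here, and with the replicate as a block in a fit of only the 2 groups the value was -1.62 (edgeR adjusted p = 0.024). From day 2 to day 10 it was -1.22 (SE 0.57, edgeR adjusted p = 0.17; 6.26% of genes called), and with the same block -1.38 (edgeR adjusted p = 0.033). With F/R/C the level stayed within a narrower range: 866, 1182 and 965 TPM on day 4, 736, 1040 and 973 on day 6, 583, 973 and 881 on day 8, and 645, 1010 and 782 on day 10. No change of Myod1 over time was called with F/R/C, where 16% of genes were called between days 2 and 10. From day 2 to day 4 of MyoD alone, where 2.49% of genes were called, Myod1 changed by 0.33 (SE 0.56, edgeR adjusted p = 0.86).

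Myod1 was lower with F/R/C than with MyoD alone. Averaged over the 5 days the log2 fold change was -1.09 (SE 0.25, edgeR adjusted p = 4.0e-04), in a comparison that called 22.1% of genes, and F/R/C was lower in 13 of 15 same-numbered pairs of libraries. By day the values were -1.45, -1.57, -1.22, -0.71 and -0.51. Only day 4 was called (edgeR adjusted p = 0.045; 13.2% of genes called), and without a single library of the 2 groups its adjusted p ran from 0.046 to 0.24, with 5 of the 6 omissions ending the call. It was also lost without the filter on low counts (-1.54, edgeR adjusted p = 0.063) and with limma (-1.48, limma adjusted p = 0.056). The libraries of the 2 treatments did not overlap on days 2, 4 and 6 and overlapped on days 8 and 10. On days 2 and 6 same-numbered libraries deviated together, and a fit of only those groups with the replicate as a block called both, at -1.44 (edgeR adjusted p = 1.3e-04) and -1.08 (edgeR adjusted p = 0.0057). The average over days lost the 2-fold minimum, with adjusted p of at most 0.0022, when replicate 2 of MyoD alone was left out on any 1 day (-0.89 to -0.98). With replicate 2 left out of both treatments on every day it was -0.74 (edgeR adjusted p = 0.035), under the 2-fold minimum; day 4 was then not called (-1.24, edgeR adjusted p = 0.26) and day 10 was 0.05. That omission was chosen after seeing the data.

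Bulk iMPCs had less Myod1 than every doxycycline library and more than MEFs (log2 fold change 4.96, SE 0.68, edgeR adjusted p = 3.7e-07; 35.5% of genes called). They were at 116, 91.2 and 116 TPM, all below the 645 to 1010 TPM of day 10 with F/R/C. The log2 fold change was -2.82 (SE 0.60, edgeR adjusted p = 0.0012; 9.57% of genes called). Bulk myoblasts were at 965, 348 and 929 TPM, and the log2 fold change of bulk iMPCs against them was -2.59 (SE 0.60, edgeR adjusted p = 0.0012), where 19.6% of genes were called. In sorted cells, Pax7-positive iMPCs had 132, 250 and 216 CPM and Pax7-positive myoblasts 465, 410 and 813 CPM, and the ranges did not overlap. The log2 fold change was -1.50 (SE 0.57, edgeR adjusted p = 0.031; 30% of genes called), and the call was lost without iMPC replicate 1 or 3 or without myoblast replicate 3 (-1.13, edgeR adjusted p = 0.13). In the order of the 15 group means, every neighbouring pair overlapped from MyoD day 4 at the top down to Pax7-positive myoblasts. In CPM, Pax7-positive iMPCs, bulk iMPCs and MEFs followed, each below and apart from the group before.

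**Figure D2:**
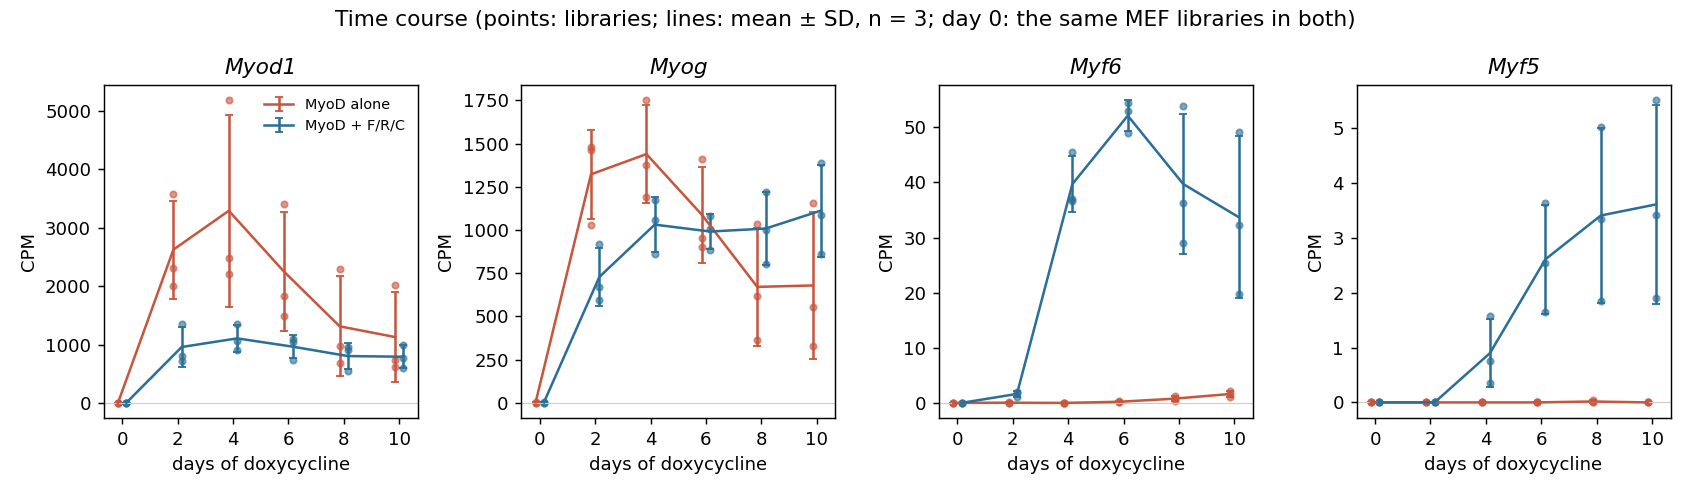
CPM of each factor against days of doxycycline, with MyoD alone and with MyoD and F/R/C; points are libraries, lines the mean and bars the SD of 3, and day 0 is the same 3 untreated MEF libraries in both. Myod1 is lower and Myf6 and Myf5 are higher with F/R/C, while the Myog lines cross between day 6 and day 8.

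Myf5, the other factor of commitment, was at or near 0 reads with MyoD alone. It had 0 reads in all 3 MEF libraries, in all 3 libraries of day 2 with F/R/C, and in 14 of the 15 libraries with MyoD alone. The exception was day 8 replicate 3, with 1 read. In the F/R/C libraries Myf5 had 8, 30 and 16 reads on day 4, 36, 70 and 51 on day 6, 34, 115 and 85 on day 8, and 48, 70 and 156 on day 10. These reads were 0.266, 1.09 and 0.548 TPM on day 4 and 1.59, 2.71 and 4.43 TPM on day 10, far below Myod1 and Myog in the same libraries.

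From day 4 on Myf5 was called higher with F/R/C than with MyoD alone on each day. Against a floor of 3 reads per library it was at least 5.79-fold higher on day 4 (edgeR adjusted p = 0.0012), at least 16.8-fold on day 6 (edgeR adjusted p = 6.0e-05; 15.4% of genes called) and at least 24.3-fold on day 10 (edgeR adjusted p = 8.5e-06; 23.3% of genes called). On day 8, against 1 read, the ratio of rates was 213 (95% counting interval 37.8 to 8444; edgeR adjusted p = 3.5e-05; 18.7% of genes called). On day 2 both treatments were at 0 reads, and no fold is given. The average over days cannot be tested in a count model with such groups. On log2 CPM, limma gave a difference of 3.70 (SE 0.20, limma adjusted p = 2.3e-16), which understates the change of so low a gene. Groups with 0 reads in every library add no spread to that fit. Its SE and p therefore do not measure the spread between libraries that have reads. Within F/R/C, Myf5 rose from day 2 to day 4 by at least 6.39-fold (edgeR adjusted p = 0.0065), in a comparison that called 2.93% of genes. From day 4 to day 10 it rose by a further log2 fold change of 2.02 (SE 0.60, edgeR adjusted p = 0.024; 7.35% of genes called), a call that was lost without any 1 of 4 of the 6 libraries (edgeR adjusted p up to 0.11). Those were day 4 replicates 1 and 3 and day 10 replicates 2 and 3.

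Myf5 was highest in myoblasts. Bulk iMPCs had 7.77, 18.4 and 44.7 TPM (356, 782 and 2006 reads), a wide spread with replicate 3 highest, and bulk myoblasts had 72.4, 71.8 and 68.6 TPM. Bulk iMPCs lay above day 10 with F/R/C by a log2 fold change of 2.98 (SE 0.56, edgeR adjusted p = 8.2e-04). Without iMPC replicate 3 the value was 2.13 (edgeR adjusted p = 0.0067). Against bulk myoblasts their log2 fold change was -1.48 (SE 0.52, edgeR adjusted p = 0.032). That call was lost in 5 of the 6 omissions of a library, all but that of iMPC replicate 3, with values from -1.07 to -2.31. Among sorted cells, Pax7-positive iMPCs had 38.6, 27.8 and 65.4 CPM and Pax7-positive myoblasts 106, 136 and 94.4 CPM. These ranges did not overlap, and the log2 fold change was -1.35 (SE 0.52, edgeR adjusted p = 0.036). Leaving out replicate 1 or 2 of either sorted group ended the call (edgeR adjusted p up to 0.15). Sorting for Pax7 did not change Myf5 to a called extent in iMPCs (0.62, SE 0.51, edgeR adjusted p = 0.33; 30.3% of genes called) or in myoblasts (0.49, SE 0.51, edgeR adjusted p = 0.58; 6.23% of genes called). Without bulk iMPC replicate 3 the first of these was 1.52 (edgeR adjusted p = 0.022).

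Myog, the factor of differentiation, rose with MyoD to a level close to that of Myod1. In MEFs it had 157, 0 and 0 reads (9.76, 0 and 0 TPM), so replicate 1 again stood apart. After 2 days it was at 1278, 1725 and 1762 TPM with MyoD alone and at 790, 1099 and 866 TPM with F/R/C. Myog was called higher than in MEFs in all 10 doxycycline groups. The log2 fold change was 9.12 (SE 1.07, edgeR adjusted p = 5.7e-08) on day 2 of MyoD alone and 8.87 (SE 1.06, edgeR adjusted p = 4.5e-08) on day 10 with F/R/C. Since the other 2 MEF libraries have no reads, these values rest on MEF replicate 1, and without it MEFs have 0 reads and the fitted fold depends on the prior count.

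No difference in Myog between the 2 treatments passed the test on any day. With MyoD alone it was at 1449, 1964 and 1617 TPM on day 4, at 781, 1233 and 439 TPM on day 8, and at 727, 1393 and 446 TPM on day 10. In the F/R/C libraries it was at 1277, 1304 and 1002 TPM on day 4, at 1090, 1564 and 1248 TPM on day 8, and at 1469, 1796 and 1107 TPM on day 10. On days 2 and 4 all 3 F/R/C libraries lay below all 3 with MyoD alone, and on days 8 and 10 the ranges overlapped. The log2 fold changes for F/R/C against MyoD alone were -0.86, -0.48, -0.13, 0.59 and 0.71 from day 2 to day 10, with edgeR adjusted p from 0.47 to 0.91. Averaged over days the value was -0.04 (SE 0.33, edgeR adjusted p = 0.94), and it changed sign between settings. The difference between day 10 and day 2 in the F/R/C effect was 1.57 (SE 1.05, edgeR adjusted p = 0.35; 6.01% of genes called). It was not called in a fit of only these 4 groups (1.65, edgeR adjusted p = 0.066), and it was called there with the replicate number as a block (1.78, edgeR adjusted p = 0.015), but not with that block over all libraries (1.65, edgeR adjusted p = 0.31). Same-numbered libraries of these groups deviated together in part: every r was over 0.1 between the treatments on day 2 and between the days with MyoD alone, while replicate 3 was at 0.062 between the treatments on day 10 and at 0.031 between the days with F/R/C.

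Among established and primary cells, Myog stood out as low in Pax7-positive iMPCs. They had 139, 190 and 266 CPM, against 418, 892 and 1276 CPM in Pax7-positive myoblasts and 601, 471 and 673 CPM in bulk iMPCs, with no overlap in either case. The 2 sorted groups also differed in the differentiated muscle genes, at 1200 to 1759 CPM in iMPCs and 4008 to 14287 CPM in myoblasts. The part of this in the Myog difference was not tested. Against Pax7-positive myoblasts the log2 fold change of Myog was -2.12 (SE 0.77, edgeR adjusted p = 0.024). It was not called without iMPC replicate 1 or 2 or myoblast replicate 3 (edgeR adjusted p up to 0.087). Against bulk iMPCs it was -1.55 (SE 0.76, edgeR adjusted p = 0.089), which missed the threshold in the fit of all libraries and was called in the fit of these 2 groups alone (-1.50, edgeR adjusted p = 0.0065). Bulk myoblasts were at 1216, 886 and 86.3 TPM, and the low library is replicate 3, which was also low in the differentiated muscle genes. Bulk iMPCs and bulk myoblasts differed by 0.16 (SE 0.74, edgeR adjusted p = 0.90), and by -0.37 without that library. In the order of group means in CPM, only MEFs were apart from the group above them, since bulk myoblast replicate 3 lay below the Pax7-positive iMPCs.

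The Myog promoter is shown because Myog rose in all 10 doxycycline groups and 3 motifs of muscle transcription factors were found in it. The window holds the 235 bases before the annotated start, chr1:134289754-134289988, plus strand, from RefSeq on GRCm38.p6. Capitals mark, from left to right, an E-box (CANNTG), a MEF3 motif (TCAGGTTTC) and a MEF2-type motif (CTA, then 4 bases that are each A or T, then TA). They lie 123 to 118, 69 to 61 and 49 to 41 bases before the start and do not overlap.
Myog promoter: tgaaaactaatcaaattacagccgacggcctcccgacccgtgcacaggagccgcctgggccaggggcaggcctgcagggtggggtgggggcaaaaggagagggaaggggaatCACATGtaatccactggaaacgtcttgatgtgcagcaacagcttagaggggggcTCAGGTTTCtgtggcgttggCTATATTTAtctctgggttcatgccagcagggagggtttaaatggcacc
Both strands were searched, and CAGCTG and TATAAA were not found. Of 32851 promoter windows of 250 bases, 66.2% held CANNTG, 3.27% the MEF2-type motif and 0.387% TCAGGTTTC. None of these motifs was found in the 250 bases before Myf5. The plan named only CANNTG and the MEF2-type motif, and TCAGGTTTC, CAGCTG and TATAAA were searched beyond it. Because the Myog promoter is shown for its motifs, the shares over all windows are no test. A match is a string of letters and no evidence of binding.

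Myf6 was higher with F/R/C than with MyoD alone in every library of the same day. It had 0, 0 and 1 reads in MEFs, 1, 2 and 0 on day 2 of MyoD alone and 1, 0 and 0 on day 4. With MyoD alone it then reached 6, 5 and 2 reads on day 6, 9, 24 and 14 on day 8, and 24, 43 and 48 on day 10, which is 1.70, 3.00 and 2.67 TPM. With F/R/C it had 46, 40 and 22 reads on day 2, when the 3 libraries held 3.17, 2.59 and 1.51 TPM. On day 4 it had 832, 864 and 768 reads (51.6, 58.2 and 49.2 TPM). It was at 76.7, 67.8 and 74.7 TPM on day 6, at 45.5, 53.4 and 77.4 TPM on day 8 and at 31.1, 48.1 and 73.4 TPM on day 10. The 2 treatments did not overlap on any day.

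Myf6 was called higher with F/R/C on all 5 days. From the summed reads, the ratio of rates was 33.1 on day 2 (95% counting interval 11.04 to 163; 108 reads against 3) and 2414 on day 4 (433 to 95390; 2464 reads against 1). It was 235 on day 6, 52.9 on day 8 and 21.1 on day 10, when 2550 reads stood against 115. The edgeR adjusted p was 0.016 on day 2, where 4.93% of genes were called, and 1.4e-04 or less on the other days. On day 2 the call was lost without replicate 1 or 3 of MyoD alone (edgeR adjusted p up to 0.0765). Averaged over days the log2 fold change was 6.72 (SE 0.48, edgeR adjusted p = 4.0e-13), and from 6.64 to 7.15 with any 1 library left out. This average takes in days 2 and 4, when MyoD alone had 3 reads and 1 read. Its size therefore rests in part on counts near 0, and it hides the spread between days. With F/R/C, Myf6 was called above MEFs from day 2 on, when the ratio of rates was 99.1 (95% counting interval 17.4 to 3950; 108 reads against 1; edgeR adjusted p = 0.0022). It rose again from day 2 to day 4, by a log2 fold change of 4.58 (SE 0.84, edgeR adjusted p = 0.0016), and from day 4 to day 10 no change was called (-0.24, SE 0.71, edgeR adjusted p = 0.85). With MyoD alone, Myf6 was called against MEFs on day 8 (20.8% of genes called) and day 10 (18.9%), but not on days 2, 4 and 6. The ratio of rates on day 10 against MEFs was 98.0 (95% counting interval 17.2 to 3903; edgeR adjusted p = 0.0026). The call on day 8 (edgeR adjusted p = 0.019) was lost without MEF replicate 1 or 2 or day 8 replicate 2. Within MyoD alone, day 10 was called above day 2, with a ratio of rates of 32.8 (95% counting interval 10.93 to 161; edgeR adjusted p = 0.014), and above day 4, with 99.9 (17.6 to 3980; edgeR adjusted p = 0.028). The first was lost without day 2 replicate 1 or 3 (edgeR adjusted p up to 0.080), and the second in 5 of 6 omissions, all but that of day 10 replicate 2 (up to 0.19).

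The low Myf6 of the cells with MyoD alone went with high levels of differentiated muscle genes. The summed level of the 11 genes ran from 9923 to 43785 CPM (median 24251) in the 15 libraries with MyoD alone, and from 11737 to 44919 CPM (median 22276) in the 15 with F/R/C. In the same libraries Myf6 had a median of 0.249 CPM (0 to 2.13) with MyoD alone and of 36.5 CPM (1.013 to 54.5) with F/R/C. The fibroblast markers moved with the treatment as well. Their summed level was 12634 to 33394 CPM with MyoD alone and 1448 to 7369 CPM with F/R/C, and its part in the difference in Myf6 was not tested.

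**Figure D3:**
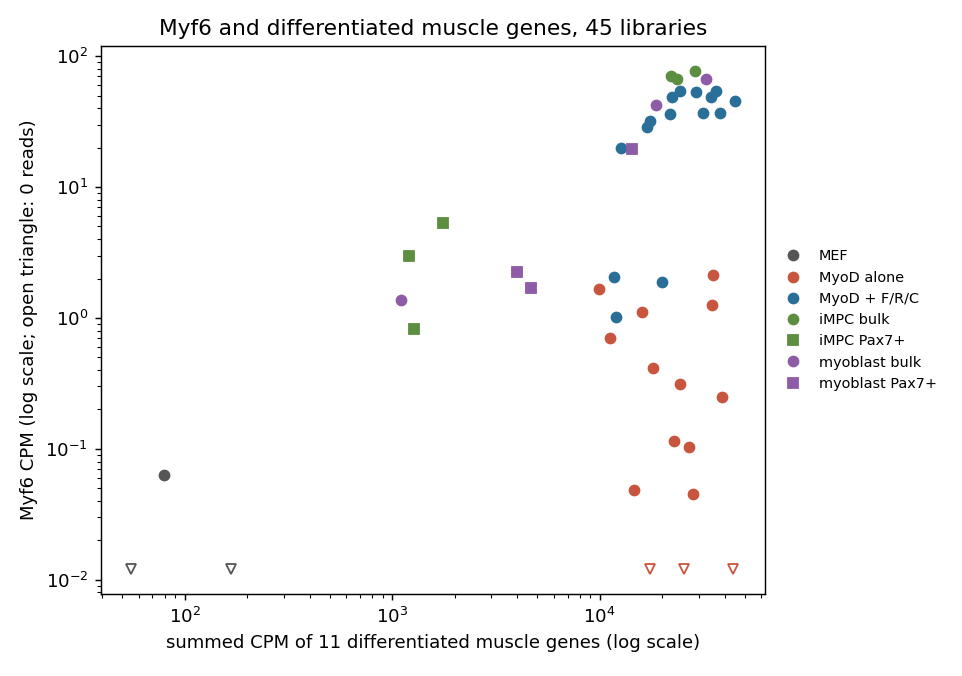
Myf6 CPM against the summed CPM of 11 differentiated muscle genes (both log scales) in each of 45 libraries; squares are sorted cells and open triangles libraries with 0 reads. The libraries with MyoD alone and those with F/R/C span about the same range on the horizontal axis, and all libraries with MyoD alone stay at or below 2.13 CPM of Myf6.

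Among the other cells Myf6 was highest in bulk iMPCs and low in sorted progenitors. Bulk iMPCs had 114, 108 and 102 TPM. In CPM they were the highest group of the series, and the group below them in the order, day 6 with F/R/C, did not overlap with them. Pax7-positive iMPCs had 0.823, 5.29 and 3.00 CPM against 77.3, 70.3 and 66.9 CPM in bulk iMPCs, a log2 fold change of -4.55 (SE 0.83, edgeR adjusted p = 4.3e-05). The differentiated muscle genes moved with it, at 1200 to 1759 CPM in Pax7-positive and 22012 to 28667 CPM in bulk iMPCs. Bulk myoblasts had 106, 72.3 and 2.34 TPM, with replicate 3 low once more. In CPM this was 66.5, 42.1 and 1.38, against 2.26, 1.69 and 19.6 in Pax7-positive myoblasts. The log2 fold change of sorted against bulk myoblasts was -2.24 (SE 0.75, edgeR adjusted p = 0.046), but the ranges overlapped and the call was lost in 4 of 6 omissions of a library, those of replicates 1 and 2 of both groups (edgeR adjusted p up to 0.26). Neither bulk iMPCs against bulk myoblasts (0.96, SE 0.71, edgeR adjusted p = 0.31) nor the 2 sorted groups (-1.35, SE 0.75, edgeR adjusted p = 0.14) differed to a called extent. Without Pax7-positive myoblast replicate 3 the latter turned to 0.62.

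Set against each other per length, the members made up the family in different proportions. With MyoD alone Myod1 was 56.3% to 62.8% of the summed TPM of the 4 genes (group means) and Myog nearly all the rest. In doxycycline libraries the Myod1 share includes reads that may come from the transgene. The transgene's sequence was not available here, so the transcript length behind those reads is not known. Bulk iMPCs are described as doxycycline-independent, and the part of the transgene in their lower Myod1 share, given below, was not tested. The share of Myod1 with F/R/C was 50.3% ± 4.23 (SD, n = 3) on day 2 and 35.1% ± 4.86 on day 10, and that of Myog 49.6% ± 4.25 and 62.5% ± 6.08. In bulk iMPCs Myog was 74.9% ± 1.52, Myf6 11.4% ± 2.04, Myod1 11.3% ± 0.792 and Myf5 2.37% ± 1.62. Within the sorted libraries, which share their effective length setting, Myf5 was 11.5% ± 4.07 in Pax7-positive iMPCs and 9.50% ± 4.08 in Pax7-positive myoblasts, and Myf6 1.21% ± 0.831 and 0.763% ± 0.763.

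**Figure D4:**
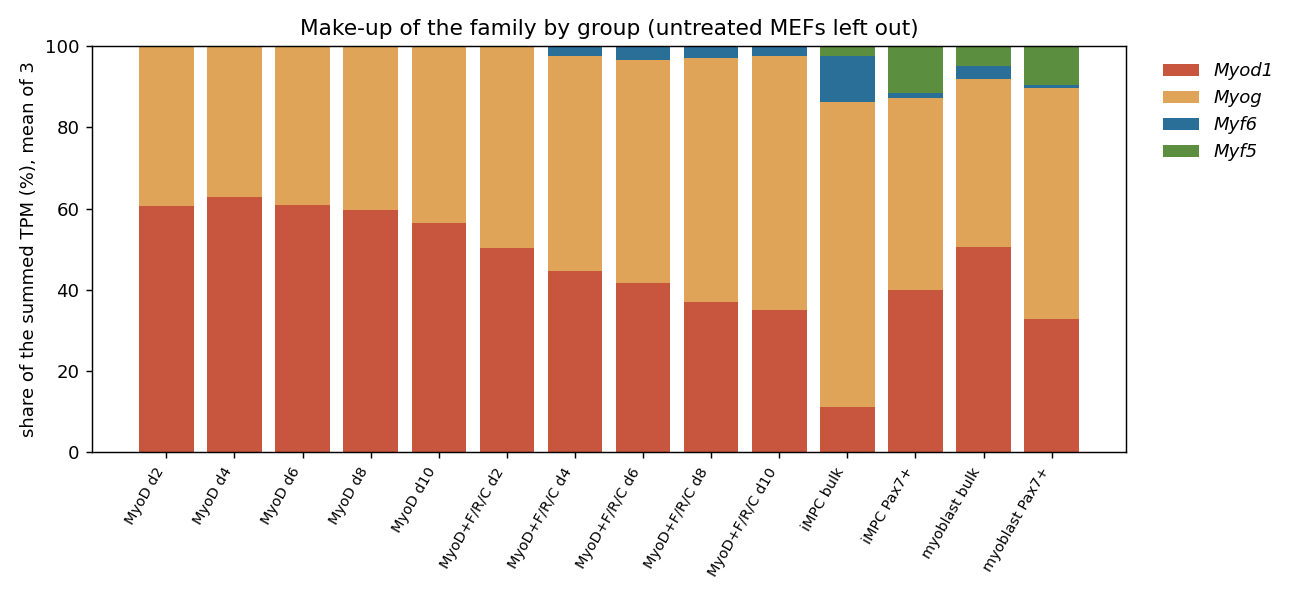
Share of each factor in the summed TPM of the 4 (%, mean of 3 libraries) in the 14 groups other than untreated MEFs. The sorted groups were quantified with other effective lengths, so their bars are not to be set against the unsorted ones. Myod1 includes any reads from the transgene. Myod1 is the largest part with MyoD alone. Myog is the largest part in bulk iMPCs, with F/R/C from day 4 on and in both sorted groups. Myf5 is visible in the iMPC and myoblast groups alone.

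The ratio of Myog to Myod1 in the same library was higher with F/R/C on every day, given here as a description with no test. Its log2 was -0.63 ± 0.31 (SD, n = 3), -0.77 ± 0.41, -0.64 ± 0.27, -0.56 ± 0.24 and -0.37 ± 0.27 on days 2 to 10 with MyoD alone. The values with F/R/C were -0.02 ± 0.25, 0.25 ± 0.27, 0.40 ± 0.19, 0.70 ± 0.20 and 0.84 ± 0.34. On each of the 5 days the 3 libraries with F/R/C were all above the 3 with MyoD alone; on day 2, for example, they ran from -0.22 to 0.25 against -0.94 to -0.32. This ratio includes Myod1 reads that may come from the transgene. Bulk iMPCs were far above both, at 2.73 ± 0.11, with the 3 libraries between 2.64 and 2.86. Bulk myoblasts were at -0.58 ± 2.52, where replicate 3 alone was at -3.43. Among sorted cells, Pax7-positive iMPCs were at 0.26 ± 0.36 and Pax7-positive myoblasts at 0.81 ± 0.66, with overlapping ranges. Because of their other effective lengths, the sorted groups are not set against the unsorted ones.

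**Figure D5:**
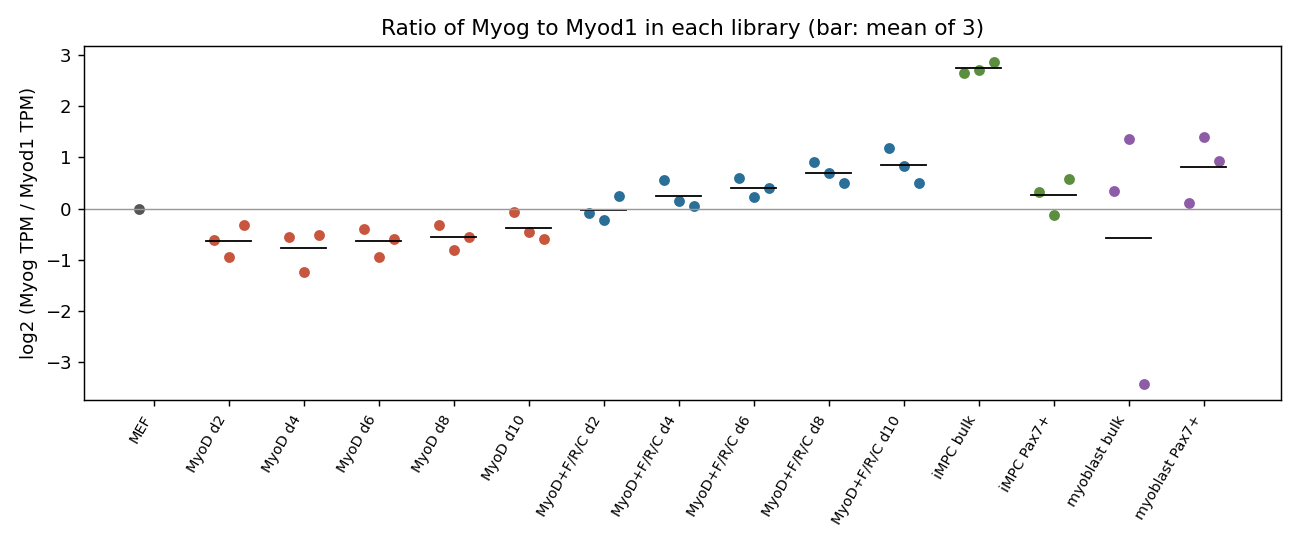
log2 of the Myog to Myod1 TPM ratio in each library; bars are means of 3, and only 1 MEF library has reads of both. Libraries with MyoD alone lie below 0, those with F/R/C above them on the same day, and bulk iMPCs between 2.64 and 2.86. The sorted groups have other effective lengths and are not to be set against the unsorted ones.

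The genes known to act on the family, with it, or downstream of it were taken as 4 lists. The lists were chosen with earlier results of these data known, so the counts below are descriptions and no independent support. Of 24 targets, 24 were called higher than in MEFs on day 2 of MyoD alone (median log2 fold change 7.90, against 0.00 over all genes, of which 12.3% were called higher). They include Mymx, a micropeptide needed for myoblast fusion (0.0440 CPM in MEFs and 122 CPM on day 2), Des, the muscle intermediate filament (8.08 and 1408 CPM), and Chrna1, a subunit of the acetylcholine receptor (12.5 and 888 CPM). Averaged over days, 3 targets were higher and 1 lower with F/R/C than with MyoD alone, beside 11.6% and 10.5% of all genes. Cdkn1c, an inhibitor of the cell cycle, rose by a log2 fold change of 3.40 (SE 0.39, edgeR adjusted p = 5.1e-09) and the Notch ligand Dll1 by 1.33 (SE 0.17, edgeR adjusted p = 3.6e-08). Rbm24, an RNA-binding regulator of muscle splicing, was higher as well (1.11) and the sarcomere gene Mybph lower (-1.09). The median of the 24 was 0.03, beside -0.03 over all genes. In Pax7-positive iMPCs 18 targets were lower than in bulk iMPCs, and 16 were lower and 1 higher than in Pax7-positive myoblasts (medians -3.21 and -2.28, beside -0.13 and -0.07 over all genes). Of all genes, 20.5% were lower in the first comparison, and 17.6% were lower and 12.4% higher in the second.

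Averaged over days, of 11 upstream regulators tested, 4 were higher and 2 lower with F/R/C than with MyoD alone, beside 11.6% and 10.5% of all genes. Six4, a homeodomain factor, was higher by a log2 fold change of 1.16 (SE 0.09, edgeR adjusted p = 1.6e-12). Eya1, a transcriptional coactivator, was higher by 1.15 (SE 0.11, edgeR adjusted p = 9.5e-11), while Barx2, a homeobox gene, was at 0.115 CPM with F/R/C against 2.42 CPM with MyoD alone (-4.34). Pax7, known as an activator of Myf5, was at 0 to 0.541 CPM (group means) up to day 4 in both treatments, and with F/R/C at 4.63 ± 4.26 CPM (SD, n = 3) on day 6, 30.3 ± 0.897 on day 8 and 63.6 ± 14.8 on day 10. On day 10 Pax7 was higher with F/R/C than with MyoD alone (9.44, SE 0.72, edgeR adjusted p = 6.4e-10). It was at 61.7 ± 21.1 CPM in bulk iMPCs and at 489 ± 130 CPM in bulk myoblasts. In bulk iMPCs 5 upstream regulators were lower than in bulk myoblasts, beside 8.7% of all genes, among them Pax7 (-2.99), Lbx1 (-5.42), Pax3 (-4.48) and Pitx3 (-2.07).

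The list of E proteins and cofactors, the partners of the family, holds 15 genes. Averaged over days, 10 of them had an edgeR adjusted p under 0.05 at any fold with F/R/C against MyoD alone. By the same rule, 10654 of the 17325 genes tested did so. At an unadjusted p under 0.05 the list count was also 10, and that of all genes was not taken. The log2 fold changes of the 15, from -0.72 to 0.86, were all under 2-fold. None was therefore called by edgeR, limma or DESeq2, beside 22.1% of all genes by edgeR. By day, edgeR called 0 on day 2, beside 4.93% of all genes, and 0 on day 10, beside 23.3%. It called 1 each on days 4, 6 and 8, beside 13.2%, 15.4% and 18.7% of all genes. At an unadjusted edgeR p under 0.05 there were 4 on day 2 and 5 on day 10, with no count over all genes taken. The gene called on day 4 was Mef2a, a MADS-box partner of the factors, at 650 against 235 CPM (log2 fold change 1.47, SE 0.32, edgeR adjusted p = 0.0012). Averaged over days it was not called (0.81), and it is named after its value was seen. Tcf12 was at 117 to 208 CPM with MyoD alone and 194 to 246 CPM with F/R/C (group means). Averaged over days, of 17 antagonists, proteins that bind or compete with the factors or repress their targets, 5 were higher and 4 lower with F/R/C, beside 11.6% and 10.5% of all genes. The Notch effectors Hey1 and Heyl were higher by 3.11 (SE 0.25, edgeR adjusted p = 3.9e-12) and 2.62 (SE 0.29, edgeR adjusted p = 3.2e-09). Id4, which takes E proteins away from the factors, was higher by 2.33 (SE 0.23, edgeR adjusted p = 4.3e-10). Mdfi, which keeps the factors out of the nucleus, was lower by 2.70 (SE 0.32, edgeR adjusted p = 1.4e-08). Hey1 and Heyl were already above MEFs on day 2 of MyoD alone. In group means, Hey1 was at 17.7 CPM against 0.499 in MEFs, and Heyl at 82.7 against 0.478. Msc (musculin), a repressor that binds E-boxes, was at 42.1 CPM on day 10 with F/R/C, at 0.131 CPM on day 10 with MyoD alone and at 0.0358 CPM in MEFs (group means). In bulk iMPCs 10 antagonists were higher and 4 lower than in bulk myoblasts, beside 10.9% and 8.7% of all genes, with Hey1 (4.22) and Msc (6.99) among the higher and Id1 (-2.38) and Id3 (-2.07) among the lower.

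The genes most like each factor were found by Pearson correlation of log2 CPM over the 15 group means, among 8906 genes whose means span at least 4-fold. These are descriptions over groups that share cells and culture. Closest to Myod1 were Dok7 (r = 0.98), Rtn2, Jsrp1, Shisa2 and Pdlim4. Closest to Myog were Ryr1 (r = 0.99), the calcium release channel, H19, Trim55, Erbb3 and Chrng. By rank over the 15 groups the 5 genes named for Myog were less close to it, at 0.63, 0.86, 0.69, 0.90 and 0.76 in that order. Closest to Myf5 were Pax7 (r = 0.98), Slc2a12, Spa17, Pcsk2 and Pcdhb17. Closest to Myf6 were B3gnt5 (r = 0.97), Ssx2ip, Fam13a, Rasip1 and St8sia5. Between members, r over the 15 groups was 0.93 for Myod1 and Myog and 0.66 for the neighbours Myf5 and Myf6, and from -0.13 to 0.34 for the other 4 pairs. Rank correlation differs for some of them: it was 0.74 for Myod1 and Myog and -0.52 for Myod1 and Myf5.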

How the data were processed

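Per the labels' protocols, RNA was poly-A selected, made into stranded libraries and read from a single end on a NovaSeq instrument. The submitters' processing notes name bcl2fastq 2.19, Trimmomatic 0.36, kallisto 0.44, edgeR 3.28 and GRCm38.p6. Per the file headers, the deposited files hold estimated counts (not normalized) and TPM for 121843 transcripts, of which 121104 matched GENCODE M21 (99.4% to 99.8% of reads). The authors' TPM is scaled to effective length. Settings and transcript release are not given in the sources used here.

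Estimated counts were summed per gene and rounded. edgeR 4.0.16 (R 4.3.3; TMM, filterByExpr, glmQLFit, glmQLFTest) fitted all 45 libraries with 15 groups and no block, left 30 residual degrees of freedom and tested 17325 genes in 29 contrasts. Calls need a Benjamini-Hochberg adjusted p under 0.05 and at least a 2-fold change. limma 3.58.1 (log2 CPM, prior count 2) and DESeq2 1.42.0 were alternatives, as were RLE size factors, no filter, only the groups compared, a replicate block, and leaving out each library. Floors and intervals use 3 reads per library and exact binomial limits at 95%, and cover counting error only. Tested on simulated data with 200 genes changed 4-fold between day 10 with F/R/C and with MyoD alone, the fit ran on 17127 genes and recovered 83%, with 7 false calls.

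The members and lists were chosen with earlier results of these data known. Named list genes are, for F/R/C against MyoD alone averaged over days, day 2 of MyoD alone and day 10 with F/R/C against MEFs, and bulk iMPCs against bulk myoblasts, up to 4 called genes per list with the smallest adjusted p, plus Pax7 and Tcf12 for levels and the 5 genes most like each member. In the list of upstream regulators, 1 gene that the rule names is not reported here. Proteins were not compared, and coding sequences were aligned in their place. Same-numbered libraries deviated together (every r above 0.1, deviations from group means across genes) in 8 of 27 comparisons of 2 groups, all within the time course: MyoD against F/R/C on days 2, 4 and 6, MyoD days 2, 4 and 10 among each other, and F/R/C day 4 against days 2 and 10. Labels give no source for the numbers, and replicate 3 was the library with Y-linked transcripts in 13 of 15 groups.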

Additional observations from a re-analysis of the deposited data

Results flagged for a closer look

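Myog was flagged because its F/R/C effect pointed one way early and the other way late in every same-numbered pair of libraries. On days 2 and 4 it was lower with F/R/C in 3 of 3 pairs, and on days 8 and 10 higher in 3 of 3 pairs. On day 6, in between, it was higher in 1 pair and lower in 2. Only the 4 members were searched for this pattern, and its share over all genes was not counted. The difference in log2 fold change was 1.45 for day 8 minus day 2, 1.57 for day 10 minus day 2, 1.07 for day 8 minus day 4 and 1.19 for day 10 minus day 4. From day 2 to day 10 Myog was lower in every same-numbered pair with MyoD alone and higher in every pair with F/R/C, which is the same value, 1.57. Of these, day 10 minus day 2 was tested, and did not pass in the fit of all libraries (edgeR adjusted p = 0.35). With the replicate number as a block it passed in a fit of only the 4 groups (1.78, edgeR adjusted p = 0.015) and not over all libraries (1.65, edgeR adjusted p = 0.31). The others were not tested. Between the treatments, libraries with the same number deviated together on days 2 and 4 (every r over 0.1). On day 8 r was 0.23, 0.23 and 0.079, and on day 10 it was 0.26, 0.25 and 0.062, so that only replicate 3 was under 0.1.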

How the results depend on the processing

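Of 101 results, 65 kept their direction and side of the threshold under every setting run. Myog with F/R/C against MyoD alone, averaged over days, was near 0 with either sign: 0.0148 with RLE size factors, 0.0135 in the fit of only the groups compared, 0.0147 with DESeq2, 0.0239 without the filter on low counts, 0.0249 with limma and 0.0474 with the replicate block in the groups compared. With replicate 2 left out of both treatments, a setting added after seeing the data, it was 0.17, Myod1 was -0.74 over days and 0.05 on day 10, Myog on day 6 was 0.10, Myf6 on day 2 was not called (5.76, edgeR adjusted p = 0.18), and 2352 genes were called on day 10 in place of 4037. Myod1 over days fell under 2-fold with the replicate block in the groups compared (-0.96) and with limma (-0.997). In that block, Myod1 and Myf5 in bulk iMPCs against day 10 with F/R/C were -2.85 and 2.74 (edgeR adjusted p = 0.056 for each), and against bulk myoblasts -2.51 (0.056) and -1.85 (0.16), while the day 10 minus day 2 difference in the F/R/C effect was called for Myog (1.78, edgeR adjusted p = 0.015) and Myod1 (1.17, 0.024). For bulk iMPCs the same-numbered libraries did not deviate together; for the day 10 minus day 2 difference they did in part, with replicate 3 under 0.1 in 2 of the 4 comparisons it joins. With the sex of the library as a covariate, a fit added after seeing the data, no call changed. Genes called in the block fell from 1658 to 0 for bulk iMPCs against day 10 with F/R/C (edgeR, with 4007 at an unadjusted p under 0.05), from 3396 to 199 (1265 in the fit of only the groups compared) for bulk iMPCs against bulk myoblasts, and from 5199 to 3064 (3424) in sorted cells. Without a minimum fold, 7108, 10654, 3549, 5693 and 8233 genes were called on day 10, over days (3823 with it), and in these 3 comparisons. Myf5 in bulk iMPCs against bulk myoblasts was -1.52 (0.14) in the groups compared, and in sorted cells -1.31 (0.052) without the filter. In the fit of only the groups compared, 2 changes from day 4 to day 10 were lost, Myf6 with MyoD alone (6.25, edgeR adjusted p = 0.11) and Myf5 with F/R/C (2.11, 0.056). With limma, Myog in sorted cells was -2.03 (limma adjusted p = 0.069), Myf6 in bulk iMPCs against bulk myoblasts 2.16 (0.045), and the day 10 minus day 2 difference for Myf6 0.59. Leaving out 1 library moved Myod1 over days from -1.16 to -0.89, Myog over days from -0.10 to 0.15, and Myod1 on day 10 from -0.68 to 0.32. In bulk iMPCs against bulk myoblasts Myf5 ran from -2.31 to -1.07 and Myog from -0.37 to 0.77. In Pax7-positive iMPCs against myoblasts Myod1 ran from -1.65 to -1.13, Myf5 from -1.72 to -1.06, Myog from -2.45 to -1.72 and Myf6 from -1.98 to 0.62. Values that crossed 0 without being called were Myod1 and Myog from day 2 to 4 of MyoD alone (-0.21 to 0.54 and -0.089 to 0.18), Myog on day 6 (-0.19 to 0.14), the Myf6 day 10 minus day 2 difference (-1.41 to 0.17), and with F/R/C Myod1 from day 2 to 4 (-0.0097 to 0.53) and 2 to 10 (-0.45 to 0.15) and Myf6 from day 4 to 10 (-0.47 to 0.034). The cause of these changes was not tested.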
